A study of Mus musculus with 8 samples.

Results

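ATF4 amino acid stress response genes were followed in mouse retinal organoids while METTL3 was being degraded. METTL3 is the catalytic subunit of the complex that methylates adenosines of messenger RNA to N6-methyladenosine. The set held 41 genes given by name, among them the gene of the transcription factor ATF4 itself, its partners and feedback genes, enzymes of amino acid synthesis, amino acid transporters and tRNA synthetases. Genes were taken by exact symbol from the deposited expression tables, and 38 of the 41 were matched, where the 1 h table lists 35494 loci in all and the later tables list 35541 each. Ddit3 and Aars appeared only in loci that the tables merge with a neighbouring gene, so their values are given but not counted. Slc7a5 was not matched by name and was not analysed here.

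The study used 8 polyA RNA-seq samples in 4 groups of 2: organoids without dTAG-13 (0 h) and organoids given 125 nM dTAG-13 for 1 h, 8 h or 24 h. All groups, the 0 h group included, came from an Rx:GFP mouse line in which both endogenous Mettl3 alleles carry an FKBP12F36V-HA tag at the C-terminal end. dTAG-13 is a small molecule that directs proteins with this tag to degradation. The organoids were retinal progenitor cultures at about day 6 of differentiation, grown in a medium with added non-essential amino acids and pyruvate. Per the labels, treatment started at day 5. The 0 h group was the only group without dTAG-13. Any difference in organoid age between the groups therefore cannot be told apart from the treatment. The labels do not say whether the 0 h organoids received solvent, whether the line is 1 clone, or whether the duplicates came from separate cultures.

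When amino acids run short or unfolded proteins build up, kinases such as GCN2 and PERK phosphorylate the translation factor eIF2. General protein synthesis then slows while the ATF4 mRNA is translated more, and ATF4, paired with C/EBP proteins, binds response elements in genes for amino acid synthesis, import and tRNA charging. ATF4 also drives genes that shut the response down, and several of its targets have short-lived mRNAs.

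The promoters were searched first for the element that ATF4 is known to bind. The C/EBP-ATF response element was searched as TGATGNAA on both strands, in RefSeq promoters of build GRCm38.p6 that run from 250 bases before to 50 bases after each gene's start. Of the 41 genes, 33 had a promoter in that table, and 13 of these (39.4%) held the element. Among all 32851 promoters of the same length, 1304 (3.97%) held it. Counted by gene, as for the set, 1219 of 27025 genes (4.51%) did, and among 9031 other genes tested at 24 h, 222 (2.46%) did. The genes were listed for their part in the ATF4 response, so their share may follow from how the list was made. A match describes letters and not binding. The windows below, each 28 bases read 5′ to 3′ on the strand of the element with the element in capitals, are those of the members whose values are described in most detail and of 3 further holders.
Chac1, chr2:119351039-119351066, minus strand: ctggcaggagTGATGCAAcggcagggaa
Trib3, chr2:152344029-152344056, plus strand: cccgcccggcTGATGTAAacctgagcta
Asns, chr6:7693215-7693242, minus strand: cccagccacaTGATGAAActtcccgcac
Gars, chr6:55037961-55037988, minus strand: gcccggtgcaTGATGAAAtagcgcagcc
Iars, chr13:49682127-49682154, minus strand: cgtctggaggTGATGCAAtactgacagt
Tars, chr15:11399656-11399683, plus strand: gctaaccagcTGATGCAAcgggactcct
Vldlr, chr19:27216810-27216837, minus strand: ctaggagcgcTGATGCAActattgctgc
Pycr1, chr11:120643834-120643861, minus strand: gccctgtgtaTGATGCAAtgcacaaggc

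The sites lay from 200 bases before the start (Vldlr) to 15 bases after it (Trib3), and 3 of the 14 sites read along the gene's own strand. Aars held 2 sites, and the other holders Iars, Tars, Yars and Gars made the synthetases 5 of 8. The other amino acid enzymes had 3 of 4 (Asns, Pck2 and Pycr1), the transcription regulators 2 of 7 (Nupr1 and Trib3), the feedback and effector genes 2 of 4 (Chac1 and Vldlr), the transporters 1 of 4 (Slc1a4), and the serine and one-carbon enzymes 0 of 6. The 250 bases before the start are shown for Chac1, the gene that fell at 1 h, and for Asns and Gars, which fell at 24 h. They are read along the gene, with the element in capitals on whichever strand it lay.
Chac1, chr2:119350992-119351241, plus strand: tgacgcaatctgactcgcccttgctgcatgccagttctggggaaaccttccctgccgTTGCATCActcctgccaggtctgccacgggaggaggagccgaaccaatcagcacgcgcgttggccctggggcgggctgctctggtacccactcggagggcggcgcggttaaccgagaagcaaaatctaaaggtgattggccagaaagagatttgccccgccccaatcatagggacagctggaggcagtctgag
Asns, chr6:7693210-7693459, minus strand: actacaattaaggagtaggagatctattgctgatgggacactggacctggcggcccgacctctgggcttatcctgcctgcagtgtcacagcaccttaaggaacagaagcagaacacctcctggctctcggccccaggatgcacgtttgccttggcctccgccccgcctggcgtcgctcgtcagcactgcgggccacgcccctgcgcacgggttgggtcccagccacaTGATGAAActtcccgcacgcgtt
Gars, chr6:55037751-55038000, plus strand: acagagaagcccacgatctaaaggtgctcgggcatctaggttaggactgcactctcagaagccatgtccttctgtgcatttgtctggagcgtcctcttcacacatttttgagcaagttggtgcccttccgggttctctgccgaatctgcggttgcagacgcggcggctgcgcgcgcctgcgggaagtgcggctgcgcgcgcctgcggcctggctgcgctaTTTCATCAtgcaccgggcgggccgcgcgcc

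Expression was given as FPKM (fragments scaled by transcript length and by the depth of the library), with 1 value per condition and an interval around it from the deposited table. The duplicates were combined in these values, so there is no spread between samples and no p-value. A gene is written below as having risen or fallen only where its FPKM differed at least 1.5-fold and the intervals of the 2 conditions did not overlap. The level of confidence of the intervals is not given in the sources used here. Log2 ratios are of FPKM with 0.1 added, treated over the 0 h column of the same table, and the 3 comparisons share the 0 h libraries. All 38 matched genes reached 1 FPKM in every table, Cebpb by the smallest margin at 1.26 FPKM at 0 h in the 1 h table. Values for 0 h and treated organoids are given with the interval in parentheses.

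Each condition held between 31361518 and 32562075 estimated fragment counts. Mettl3 mRNA stood at 19.2 FPKM at 0 h and 19.1 at 1 h, and at 19.4 and 17.0 in the 24 h table, with overlapping intervals, but the tag removes the protein, so this does not check the depletion. The labelled tissue was checked by its markers, and all 9 eye field genes passed 1 FPKM. Their summed FPKM was 636 at 0 h and 892 at 24 h, with 3 of 9 risen (3.83% of all tested loci rose). The 6 pluripotency genes summed to 308 FPKM at 0 h and 199 at 24 h, with 2 of 6 fallen (1.65% of all tested loci fell). Most of that sum and of its difference was Dppa5a, which fell from 200 to 109 FPKM. Tdgf1 fell from 22.8 to 10.9 FPKM. The other pluripotency genes did not pass, and Zfp42 had a log2 ratio above 0 (0.18). The 3 neuronal markers found, Dcx, Neurog2 and Atoh7, were under 1 FPKM throughout. Endoderm markers summed to at most 6.03 FPKM and mesoderm markers to at most 13.02 FPKM. The pigment epithelium markers summed to 59.7 FPKM at 0 h and 96.4 FPKM at 24 h, with 0 of 3 tested passing, and of 3 telencephalon markers found 1, Emx2, passed 1 FPKM, where the sum was 20.9 FPKM at 0 h and 21.8 FPKM at 24 h. In bulk samples, fewer cells of a type and less RNA per cell cannot be told apart. The part of these marker differences in the 24 h results below was not tested.

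Few genes of the set passed at 1 h and 8 h, and more did at 24 h. At 1 h, Chac1 fell and no other matched gene passed, so 1 of 38 fell, where 0.285% of 13690 tested loci did, and 0 of 38 rose, where 0.117% did. At 8 h, Phgdh fell, 1 of 38 against 0.94% of 13825 loci, and 0 of 38 rose against 3.49%. At 24 h, 9 of 38 (23.7%) fell against 1.65% of 13910 loci, and 0 of 38 rose against 3.83%. The 9 were Phgdh, Asns, Slc7a1, Slc7a3, Gars, Eprs, Mars, Iars and Lars. In either direction, 0.402%, 4.43% and 5.48% of all tested loci passed at 1, 8 and 24 h. The set was chosen with earlier results of these data known. Its share beside that of all loci is therefore a description and not a test.

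The 38 genes had median log2 ratios of -0.03, -0.24 and -0.42 at 1, 8 and 24 h, beside 0.01, 0.01 and 0.02 for all tested loci. At 24 h, 32 of the 38 genes had a ratio below 0, compared with 47.9% of all tested loci, while at 1 h 22 of 38 did, compared with 48.4%. By fold alone, without the intervals, 2 genes were 1.5-fold lower at 1 h (2.57% of loci), 2 at 8 h (4.8% of loci) and 12 at 24 h (6.53% of loci). Cebpb at 8 h was the 1 gene of 38 that was 1.5-fold higher by fold alone, where 8.91% of loci were.

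**Figure D1:**
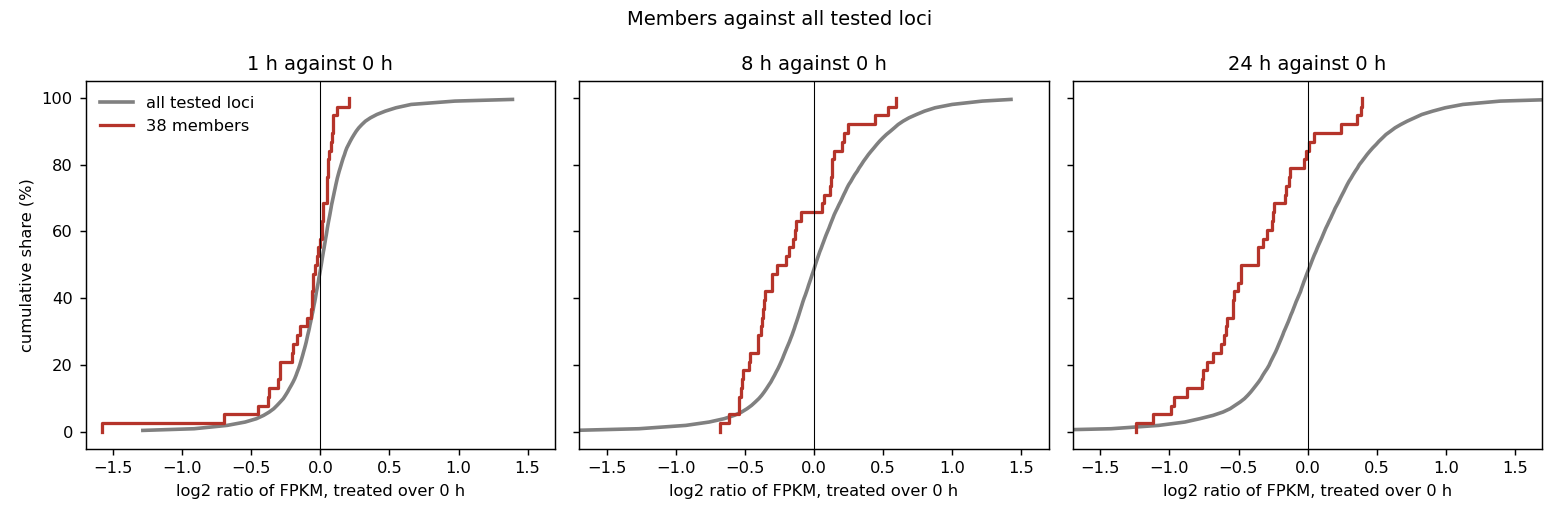
Cumulative share of genes (vertical axis, percent) against the log2 ratio of FPKM, treated over 0 h (horizontal axis), for the 38 matched genes (red steps) and all tested loci (grey) at 1, 8 and 24 h. The curves lie close together at 1 h, and at 24 h the red curve sits to the left, with its median at -0.42 beside 0.02 for all loci.

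Divided by role, the regulators and effectors had their lowest median log2 ratio at 1 h, and the metabolic genes and synthetases had theirs at 24 h. The medians at 1, 8 and 24 h were -0.27, 0.17 and -0.04 for the 6 transcription regulators counted and -0.22, 0.17 and -0.01 for the 4 feedback and effector genes. For the 7 serine and one-carbon enzymes they were 0.05, -0.31 and -0.54. For the 5 other amino acid enzymes they were 0.01, -0.14 and -0.48. For the 10 synthetases counted they were 0.03, -0.39 and -0.56.

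**Figure D2:**
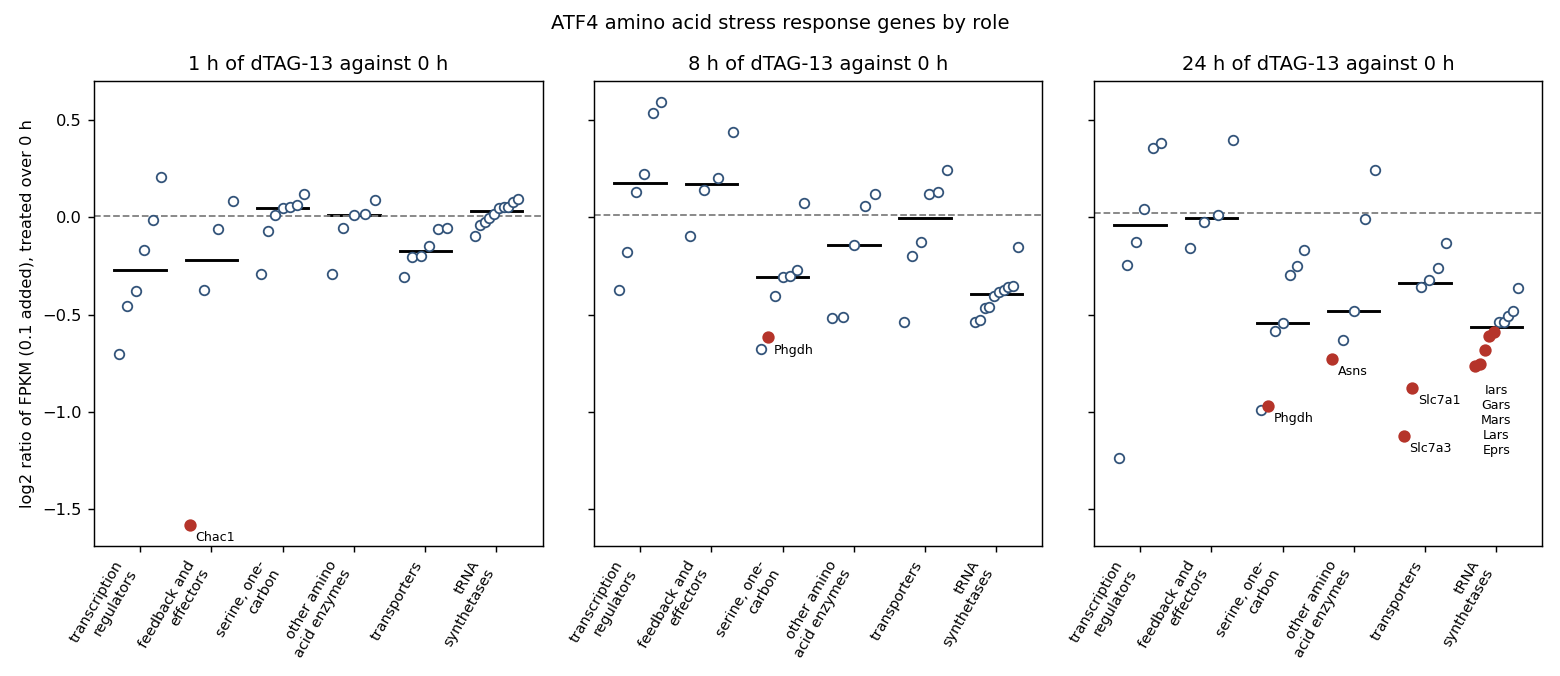
Log2 ratio of FPKM (0.1 added), treated over 0 h, for each matched gene by role at 1, 8 and 24 h; black bars are role medians, the dashed line is the median of all tested loci, and filled red points are genes that fell. Chac1 stands alone at -1.58 at 1 h, and at 24 h the filled points lie among the serine enzymes, Asns, the transporters and the synthetases.

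Chac1, which encodes an enzyme that degrades glutathione and is a downstream target of ATF4 and CHOP, lies at chr2:119351229-119354381 (GRCm38) and has 3 exons. It was at 11.4 FPKM (8.64 to 14.1) at 0 h and 3.73 FPKM (2.63 to 4.83) after 1 h. Its log2 ratio was -1.58, a decrease of 67.1% in FPKM, and the estimated counts were 521 and 172. In the 8 h table it was at 11.5 FPKM (8.96 to 14.04) at 0 h and 15.6 FPKM (12.3 to 18.9) after treatment. In the 24 h table it was at 11.5 FPKM (8.96 to 14.1) and 11.6 FPKM (9.04 to 14.2). The low value was thus found at 1 h, and at 8 and 24 h the treated intervals overlapped those of 0 h.

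Trib3 encodes a pseudokinase that binds ATF4 and limits its activity. It was at 5.83 FPKM (4.26 to 7.41) at 0 h and 3.55 FPKM (2.51 to 4.59) at 1 h, a log2 ratio of -0.70. The intervals overlapped by a small stretch, so it did not pass. At 8 h and 24 h its log2 ratios were 0.22 and -0.13.

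Atf4 itself was at 89.4 FPKM (71.1 to 108) at 0 h and 65.2 FPKM (51.6 to 78.8) at 1 h, a log2 ratio of -0.45 with overlapping intervals. It stood at 99.02 FPKM (80.1 to 118) at 8 h and 76.6 FPKM (61.7 to 91.5) at 24 h, next to 90.5 and 90.8 FPKM at 0 h in those tables. No time showed Atf4 mRNA apart from 0 h, and ATF4 protein, through which the pathway is mainly controlled, was not measured in these data. Ddit3, which encodes the pro-apoptotic factor CHOP, was read in a locus merged with AC144852.1. That locus was at 18.2 FPKM (3.33 to 33.1) at 0 h and 7.46 FPKM (0 to 16.7) at 1 h, with log2 ratios of -1.28, -0.16 and -0.67 at 1, 8 and 24 h and wide, overlapping intervals.

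Atf5, a related factor whose mRNA is also under translational control, was at 39.0 FPKM (22.3 to 55.7) at 0 h and 16.5 FPKM (3.05 to 29.9) at 24 h. Its log2 ratio of -1.24 was the lowest of the 38 genes at 24 h, and the counts were 1993 and 832, but the wide intervals overlapped. At 1 h and 8 h the log2 ratios were -0.02 and -0.37. Cebpg, a dimer partner of ATF4, was at 21.8 FPKM (16.2 to 27.5) at 0 h and 31.7 FPKM (23.9 to 39.4) at 8 h, a log2 ratio of 0.54 with overlapping intervals, and at -0.38 at 1 h and 0.36 at 24 h. Cebpb, another C/EBP partner, was low, at 1.28 FPKM (0 to 3.85) at 0 h and 1.98 FPKM (0 to 4.62) at 8 h. Nupr1, a stress-induced chromatin protein, was within 0.18 of 0 on the log2 scale at each time.

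The other feedback and effector genes did not pass at any time. Ppp1r15a encodes GADD34, the phosphatase subunit that reverses eIF2 phosphorylation, and its log2 ratios were -0.06, -0.10 and -0.16. Hspa5, which encodes the endoplasmic reticulum chaperone BiP, was the most abundant of these genes at 507 FPKM at 0 h and 499 FPKM at 24 h in the 24 h table. Vldlr, a lipoprotein receptor gene induced by ATF4 under stress, had FPKM log2 ratios of -0.37, 0.14 and 0.40, and ratios of estimated counts of -0.56, -0.04 and 0.05.

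**Figure D3:**
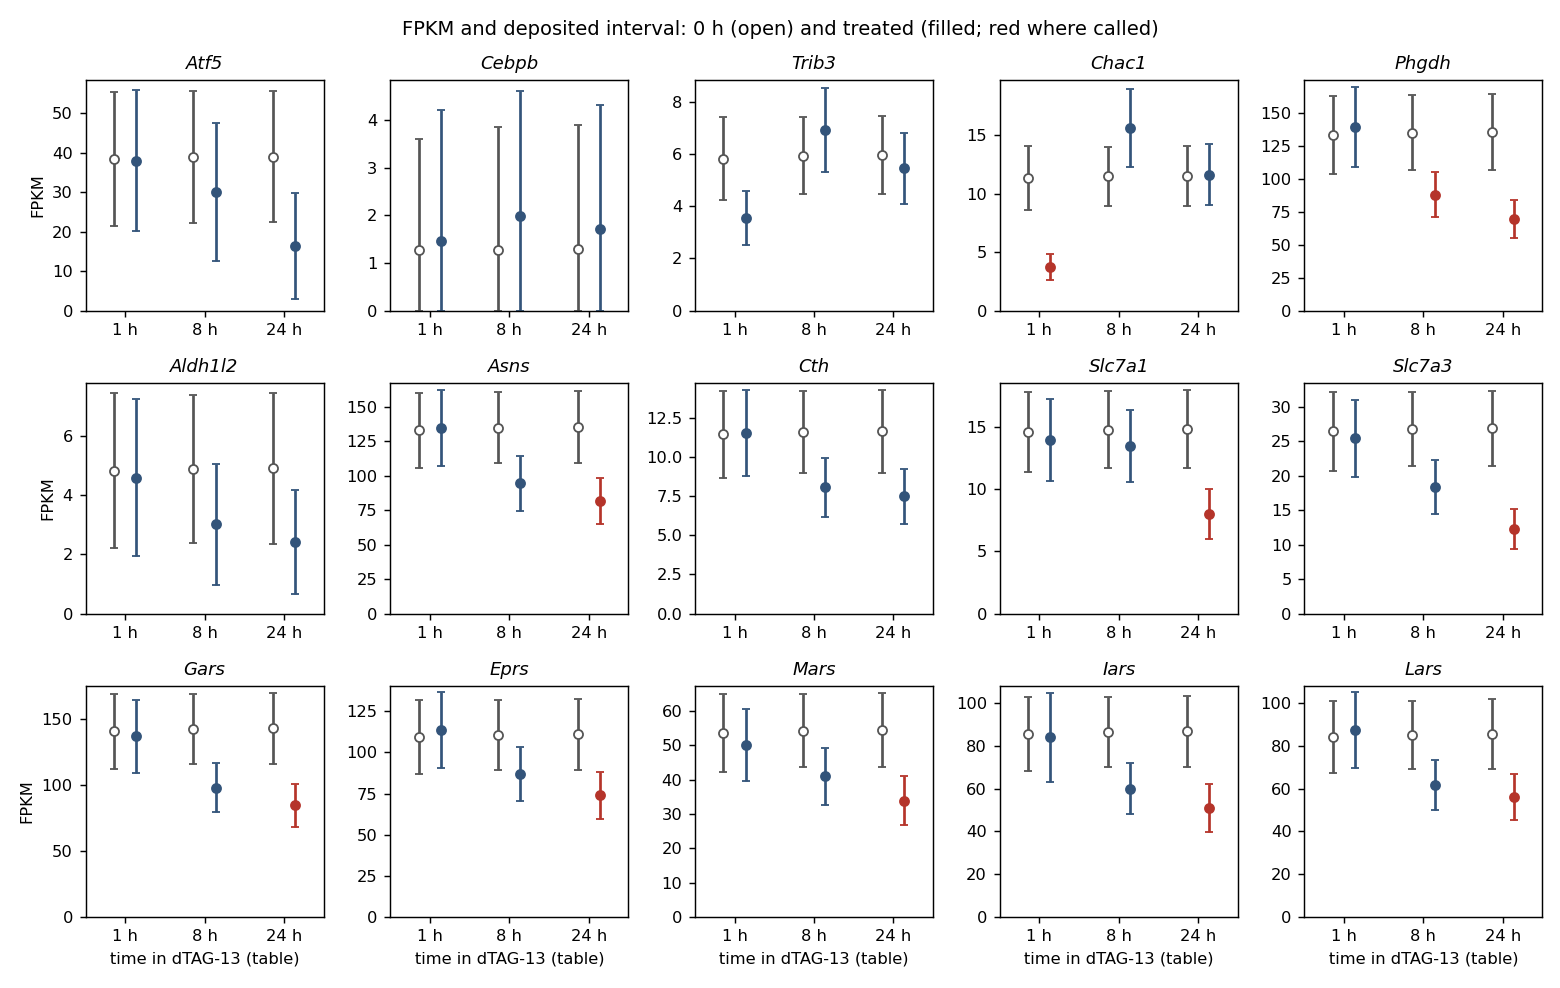
FPKM (vertical axis, from 0) at 0 h (open circles) and after dTAG-13 (filled circles) in the 1, 8 and 24 h tables for the 15 genes that fell or differed at least 1.5-fold in some table; bars are the deposited intervals and red marks genes that fell. Chac1 is red at 1 h alone, Phgdh at 8 h and 24 h, and the other red genes at 24 h.

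Serine synthesis starts from a glycolytic intermediate and runs through Phgdh, Psat1 and Psph, and Shmt2 then passes a carbon from serine to the mitochondrial folate pathway. Phgdh, which encodes the first enzyme of the route and lies at chr3:98313170-98339990 with 12 exons, was at 133 FPKM (104 to 162) at 0 h and 139 FPKM (108 to 169) at 1 h. It was at 135 FPKM (106 to 163) at 0 h and 87.8 FPKM (70.5 to 105) at 8 h, and at 135 FPKM (106 to 164) and 69.0 FPKM (54.6 to 83.5) in the 24 h table. Phgdh fell at both later times, with log2 ratios of -0.62 and -0.97, a decrease of 48.9% at 24 h, and it was the single gene of the set to fall at 8 h. Its 8 h interval ended just below that of 0 h, and by estimated counts its 8 h log2 ratio was -0.58, under the 1.5-fold threshold.

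All 7 serine and one-carbon genes had log2 ratios below 0 at 24 h, but Phgdh alone passed. Psat1, the aminotransferase of the route, was at 180 FPKM (145 to 216) at 0 h and 124 FPKM (98.9 to 149) at 24 h, a log2 ratio of -0.54. Psph, the phosphatase that releases serine, had log2 ratios of 0.12, -0.30 and -0.30. Its 0 h value was 353 FPKM in the 1 h table and 494 FPKM in the 8 h table for the same libraries, although the estimated counts were 16212 and 16409. Shmt2 was at 89.2 FPKM (70.2 to 108) at 0 h and 59.5 FPKM (45.1 to 73.8) at 24 h, a log2 ratio of -0.58 that lay just short of 1.5-fold.

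The mitochondrial folate genes were less alike. Mthfd2, which oxidises the carbon taken from serine, had log2 ratios of -0.29, 0.07 and -0.25, and Mthfd1l, which releases it as formate, had 0.05, -0.27 and -0.17. Aldh1l2, the mitochondrial formyltetrahydrofolate dehydrogenase gene, was at 4.91 FPKM (2.37 to 7.45) at 0 h and 2.42 FPKM (0.671 to 4.17) at 24 h, a log2 ratio of -0.99 with overlapping intervals. Its gene body overlaps D10Wsu102e in the GENCODE M21 annotation, and Shmt2 (Ndufa4l2), Wars (Wdr25) and Yars (C77080) also overlap another tested gene. Whether the counting used strand is not given in the sources used here, so reads could be shared between such neighbours.

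Asns encodes asparagine synthetase and is a classical reporter of ATF4 activity. It was at 133 FPKM (106 to 160) at 0 h and 135 FPKM (107 to 163) at 1 h, and at 135 FPKM (109 to 161) and 94.5 FPKM (74.5 to 115) in the 8 h table. At 24 h it was at 81.8 FPKM (65.0 to 98.5), next to 135 FPKM (109 to 162) at 0 h. Asns thus fell at 24 h, with a log2 ratio of -0.73, and its log2 ratio of -0.51 at 8 h did not pass. Chac1 and Asns both hold the element. At 1 h, when Chac1 fell, Asns had a log2 ratio of 0.02, and at 24 h, when Asns fell, Chac1 had 0.01. The part of the element in these ratios was not tested.

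The remaining amino acid enzymes did not pass. Cth, which makes cysteine from cystathionine, was at 11.6 FPKM (8.95 to 14.3) at 0 h and 7.47 FPKM (5.71 to 9.24) at 24 h, a log2 ratio of -0.63 with intervals that overlapped slightly. Pycr1, the last enzyme of proline synthesis, had log2 ratios of 0.09, -0.14 and -0.48. Aldh18a1, which acts earlier in the proline route, stayed between -0.06 and 0.06. Pck2, which makes phosphoenolpyruvate in mitochondria, had log2 ratios of -0.29, 0.12 and 0.24.

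Among the transporters, both cationic amino acid carriers fell at 24 h. Slc7a3 (CAT-3, a carrier of arginine and lysine, at chrX:101079210-101086020) was at 26.4 FPKM (20.7 to 32.1) at 0 h and 25.4 FPKM (19.9 to 31.0) at 1 h, and at 26.8 FPKM (21.4 to 32.1) and 18.4 FPKM (14.5 to 22.2) in the 8 h table. At 24 h it was at 12.3 FPKM (9.44 to 15.1), next to 26.9 FPKM (21.4 to 32.3) at 0 h. The log2 ratios were -0.06, -0.54 and -1.12, and the decrease of 54.3% at 24 h was the largest among the genes that fell at that time. The intervals overlapped at 1 h and 8 h.

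Slc7a1 (CAT-1, the widely expressed carrier of the same amino acids) was at 14.6 FPKM (11.3 to 17.8) at 0 h and 13.9 FPKM (10.7 to 17.2) at 1 h, and at 14.7 FPKM (11.7 to 17.8) and 13.5 FPKM (10.6 to 16.4) in the 8 h table. At 24 h it was at 8.01 FPKM (6.00 to 10.02), next to 14.8 FPKM (11.7 to 17.9) at 0 h, a log2 ratio of -0.88. Its 8 h log2 ratio was -0.13, so of the pair Slc7a3 had the lower value at 8 h.

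The other 4 transporters counted did not pass. Slc3a2, the heavy chain that carries several exchangers to the membrane, had log2 ratios of -0.15, -0.20 and -0.32. The neutral amino acid carriers Slc1a4 and Slc1a5 were at -0.20, 0.24 and -0.26, and at -0.31, 0.12 and -0.13. The glycine carrier Slc6a9 was at -0.20, 0.13 and -0.36. By the loci used, all 6 transporters had log2 ratios below 0 at 1 h and at 24 h, with medians of -0.17 and -0.34. A second Slc3a2 locus in the 1 h table, with fewer counts, went the other way, with a log2 ratio of 0.16. It was at 113 FPKM (58.9 to 167) at 0 h and 127 FPKM (62.3 to 191) at 1 h, with overlapping intervals.

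Aminoacyl-tRNA synthetases join each amino acid to its tRNA. The 10 cytosolic synthetase genes counted were level at 1 h, with log2 ratios from -0.10 (Mars) to 0.09 (Nars), and all 10 were below 0 at 8 h and at 24 h. The range was -0.54 (Gars) to -0.15 (Yars) at 8 h and -0.77 (Iars) to -0.36 (Yars) at 24 h. Their summed FPKM was 979 at 0 h and 739 at 8 h, and 982 at 0 h and 658 at 24 h. Of the 10, 5 fell at 24 h, where 1.65% of all tested loci fell. At 8 h 0 of the 10 passed, where 4.43% of loci passed in either direction.

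Iars, for isoleucine, was at 86.9 FPKM (70.3 to 103) at 0 h and 51.0 FPKM (39.8 to 62.3) at 24 h, a log2 ratio of -0.77. Gars, for glycine, was at 143 FPKM (116 to 170) at 0 h and 84.7 FPKM (68.5 to 101) at 24 h, a log2 ratio of -0.75. At 8 h Gars was at 97.9 FPKM (79.4 to 116), next to 142 FPKM (116 to 169), and its log2 ratio of -0.54 lay short of the threshold. Gars gives both the cytosolic and the mitochondrial glycine enzyme.

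Mars, for methionine, was at 54.5 FPKM (43.6 to 65.4) at 0 h and 33.9 FPKM (26.9 to 41.0) at 24 h, a log2 ratio of -0.68. Lars, for leucine, was at 85.5 FPKM (69.3 to 102) and 56.0 FPKM (45.3 to 66.8), a log2 ratio of -0.61. Eprs, for glutamate and proline, was at 111 FPKM (89.4 to 133) and 73.8 FPKM (59.7 to 87.9), a log2 ratio of -0.59 that passed narrowly. The 24 h log2 ratios of the other 5 were -0.54 for Wars, -0.54 for Tars, -0.51 for Nars, -0.48 for Sars and -0.36 for Yars. The merged locus of Aars and Exosc6 was at 56.0 FPKM at 0 h and 42.7 FPKM at 24 h.

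Further cytosolic synthetases outside the set were read in the same way. Hars, Kars, Rars, Dars, Farsa, Farsb and Qars had median log2 ratios of 0.10, -0.45 and -0.55 at 1, 8 and 24 h, and 7 of 7 were below 0 at 8 h and at 24 h. Farsa, for phenylalanine, fell at 24 h from 45.1 to 29.4 FPKM, the 1 of 7 to pass, while 1.65% of all tested loci fell. Cars, for cysteine, which was counted with the further ATF4 targets below, had log2 ratios of -0.05, -0.25 and -0.63 and did not pass. The 17 synthetase genes of the mitochondria had medians of -0.05, 0.05 and 0.03, with 8 of 17 below 0 at 8 h and at 24 h. At each time 0 of 17 passed, which is near the share of all tested loci. That share, in either direction, was 0.402%, 4.43% and 5.48% at 1, 8 and 24 h. The 24 h log2 ratios of the mitochondrial genes ran from -0.53 to 0.60 and overlapped those of the cytosolic genes. The difference between the compartments was not tested.

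**Figure D4:**
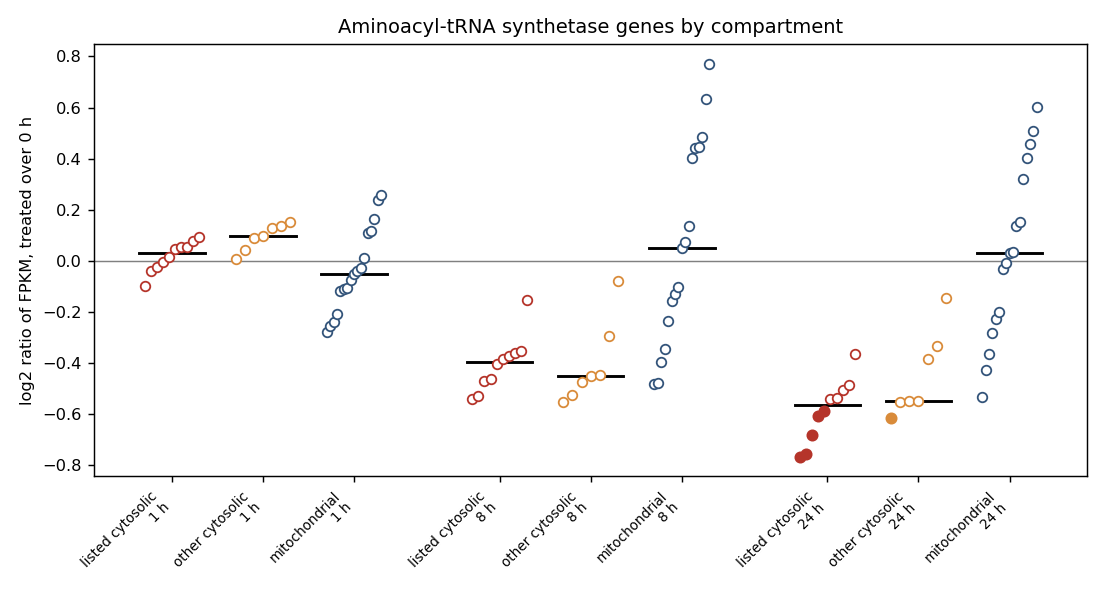
Log2 ratio of FPKM, treated over 0 h, for the 10 listed cytosolic synthetase genes (red), 7 other cytosolic ones (orange) and 17 mitochondrial ones (blue) at 1, 8 and 24 h; black bars are medians and filled points are genes that fell. Both cytosolic groups lie below 0 at 8 and 24 h, and the mitochondrial genes scatter around 0.

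Genes of the pathway outside the set were counted by the same rule. Of 12 genes for eIF2 kinases and eIF2 machinery, 0 passed at 1 h, where 0.402% of all tested loci passed in either direction. At 8 h 2 of the 12 fell (0.94% of loci fell), and at 24 h 1 fell (1.65% of loci). At 8 h and 24 h 0 rose (3.49% and 3.83% of loci). Impact, an inhibitor of GCN2 activation, was at 110 FPKM (89.2 to 130) at 0 h and 72.3 FPKM (58.7 to 85.9) at 8 h, a log2 ratio of -0.60. Eif2b3, a subunit of the exchange factor that recharges eIF2, fell at 8 h (-0.62) and at 24 h (-0.83). The genes of the eIF2 kinases were not among those that passed.

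Of 14 tested genes of 16 found from a list of further reported ATF4 targets, 2 fell at 1 h, 1 fell at 8 h and 2 fell at 24 h, where 0.285%, 0.94% and 1.65% of all tested loci fell. Of the same 14, 1 rose at 24 h, where 3.83% of loci did. Those that fell at 1 h beside Chac1 were Ddit4, an inhibitor of mTORC1, from 138 to 72.4 FPKM, and Stc2, a secreted stress-induced glycoprotein, from 11.1 to 6.39 FPKM. Ddit4 rose at 24 h from 140 to 227 FPKM. Slc7a11, the cystine carrier gene, fell at 8 h from 2.43 to 1.24 FPKM and at 24 h from 2.43 to 0.293 FPKM, with counts of 732 and 87.5. Gpt2, which makes alanine or glutamate in mitochondria, fell at 24 h from 24.6 to 15.4 FPKM.

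Of 14 endoplasmic reticulum chaperone and XBP1 or ATF6 genes, 0 passed at 1 h and 8 h, where 0.402% and 4.43% of all tested loci passed in either direction. At 24 h 3 of the 14 fell, where 1.65% of loci did: Herpud1 (-0.89), Sdf2l1 (-0.70) and Creld2 (-0.69). The median log2 ratio of the 14 genes was -0.39 at 24 h. The 9 other folate and serine genes had medians of 0.05, -0.22 and -0.08. At each time 0 of the 9 passed, near the share of all tested loci, which was 5.48% at 24 h.

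Holders and non-holders of the element were close. The 12 holders counted had median log2 ratios of -0.10, -0.15 and -0.31 at 1, 8 and 24 h, and the 19 genes whose promoter lacked these letters had -0.02, -0.20 and -0.32. At 24 h, 3 of the 12 holders and 4 of the 19 others fell, where 1.65% of all tested loci did. Chac1, the gene that fell at 1 h, was a holder.

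The density of coding exon junctions was set beside the ratios, because all-gene ratios here moved with it. Genes with few junctions carry more N6-methyladenosine in general. N6-methyladenosine was not read in the data used here, so its part in these ratios was not tested. Among all tested protein-coding genes the median log2 ratio at 24 h was taken in 10 bins of equal size by density. It ran from 0.37 in the bin of lowest density to -0.11 in the bin of highest, and at 8 h from 0.41 to -0.13. The genes of the set had a median of 6.40 junctions per kb of coding sequence (GENCODE M21), beside 6.17 for all 10953 tested protein-coding genes. Synthetases had 7.35 (6.24 to 8.77), serine and one-carbon enzymes 7.21, other enzymes 6.47, transporters 5.21, feedback and effector genes 3.28 and transcription regulators 1.07 (0 to 4.17).

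Measured from the median of their own bin, the genes of the set were at a median of -0.04, -0.27 and -0.43 on the log2 scale at 1, 8 and 24 h, and 33 of the 37 genes with a bin were below it at 24 h. The 10 synthetases were at -0.32 at 8 h and -0.49 at 24 h, with 10 of 10 below at both times. Slc7a3 was at -1.20, Slc7a1 at -0.95 and Phgdh at -0.88 from their bins at 24 h. Atf5, with few junctions, was at -1.61, and Atf4 at -0.61, while Cebpg (-0.01) and Cebpb (0.02) lay at the level of theirs.

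**Figure D5:**
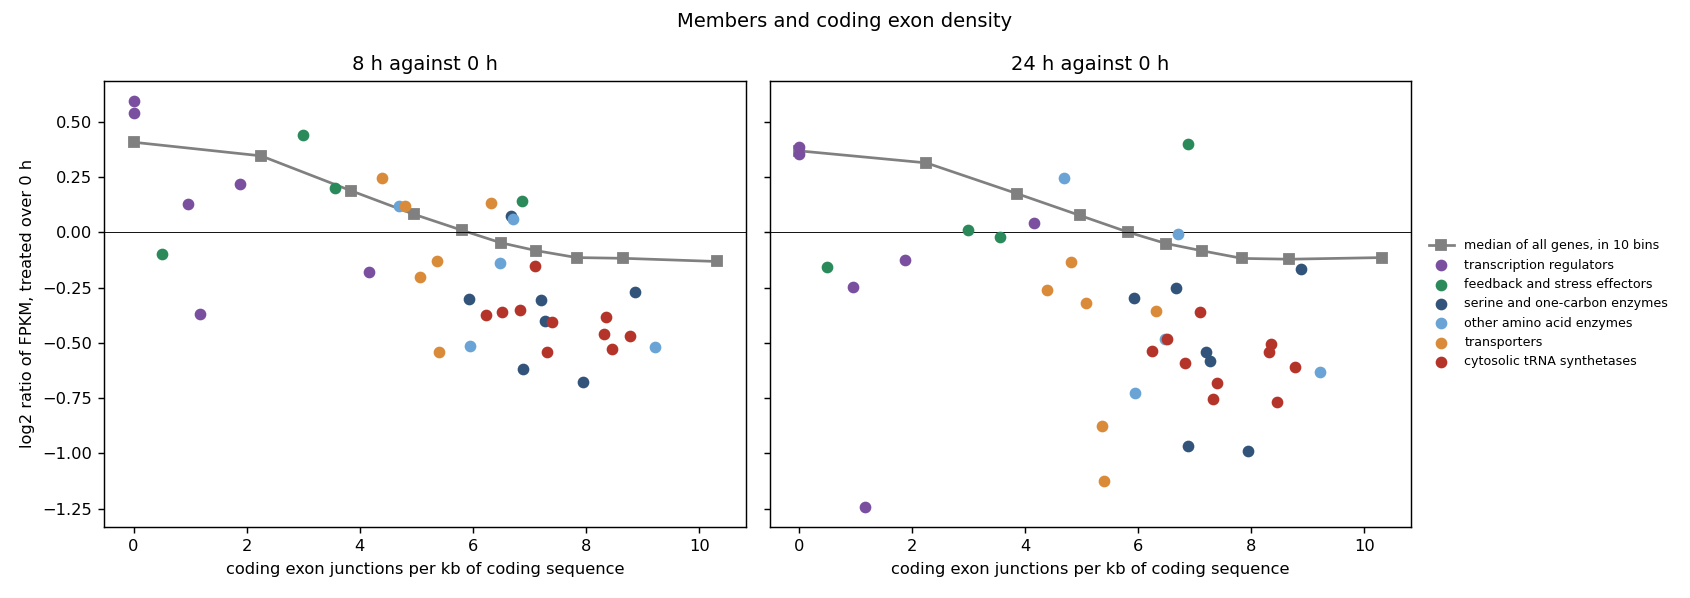
Log2 ratio of FPKM, treated over 0 h, against coding exon junctions per kb of coding sequence for the genes of the set (coloured by role) at 8 h and 24 h; grey squares are the medians of all tested protein-coding genes in 10 bins of junction density. The grey line runs from 0.37 to -0.11 at 24 h, and the synthetases lie below it.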

How the data were processed

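PolyA RNA-seq of 8 samples in 4 groups was analysed from 3 pairs of deposited tables, each holding 0 h and 1 treated time. Per the submitters' processing notes, Cufflinks 2.2.1 and Cuffdiff were used with mm10; the aligner, annotation and use of strand are not given in the sources used here. Per the file headers, the authors deposited FPKM with lower and upper bounds, and estimated counts with a variance, in 1 column per condition. The 2 samples of a group were combined, so count tests, leave-one-out fits and SDs planned for replicates could not be run, and p-values were not computed. Each table was normalised separately, and ratios were formed within tables. Per the labels, all samples carry the same batch entry, and the 2 rounds of library preparation are not separated in the tables, so no within-batch values could be given.

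Log2 ratios were computed with a pseudocount of 0.1 FPKM, which understates the change of low genes. A locus was tested with at least 1 FPKM in 1 condition and status OK in both. It was called at a 1.5-fold difference with deposited intervals apart. Loci without a gene name held 1.04% to 1.08% of counts. Where a name had 2 loci (Psph, and Slc3a2 at 1 h), the one with more counts was used. The smallest count of a member was 52.2 (Cebpb), and the median half-width of the 0 h intervals was 22.4% to 24.1% of the FPKM. The call rule alone was tried on simulated data, with changes larger than most of those reported here. Python 3.11.15, numpy 2.4.6 and pandas 2.3.3 were used. Coordinates and exons came from GENCODE M21 (GRCm38, the same assembly as mm10), and promoters from RefSeq.

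Members, gene lists and the call rule were chosen with earlier results of these data known. Genes named in detail were those called in any table or with at least a 1.5-fold difference. Alternatives covered pseudocount, FPKM and count minimum, threshold, intervals, centring and estimated counts.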

Additional observations from a re-analysis of the deposited data

How the results depend on the processing

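No paired analysis was possible because the deposited columns combine the 2 samples of each group, so the fits without 1 replicate, with a replicate block, and with edgeR or DESeq2 were not run for the same reason. At 24 h, 9 genes passed, and the count was 8 with a pseudocount of 1 FPKM, where Eprs (-0.58) no longer passed. It was 12 by fold alone, and 1 (Slc7a3) at a 2-fold threshold. At 8 h, where Phgdh passed, the count was 0 with estimated counts in place of FPKM, 0 at a 2-fold threshold, and 3 by fold alone. At 1 h, where Chac1 passed, the count was 2 by fold alone. The cause was not tested beyond the construction of each alternative, which moves the threshold or drops the intervals. The median log2 ratio at 24 h ranged from -0.48 (tested from 5 FPKM) to -0.41, at 8 h from -0.27 to -0.16 and at 1 h from -0.05 to -0.02. None of the genes that passed changed direction, at the times at which they passed, under the alternatives run. Signs near 0 did turn at times at which the gene had not passed. With estimated counts these were Vldlr at 8 h (0.14 to -0.04), Nupr1 at 24 h (0.04 to -0.0037), Aldh18a1 at 24 h (-0.01 to 0.03) and Yars at 1 h (-0.0042 to 0.01). With centring on all tested loci, among the 15 genes given in full, it was Chac1 at 24 h (0.01 to -0.0085). Leaving out 6 genes with 2 loci of their name or a gene body that overlaps another tested gene, chosen after seeing the data, left 1, 1 and 9 that passed of 32. By the intervals alone, with no fold asked, the counts were 1, 1 and 9, so no gene with a smaller difference had intervals apart. Cebpb, Ppp1r15a, Aldh1l2, Atf5 and Nupr1 had the widest intervals.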
